A study of Danio rerio with 8 samples.

Results

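The 33 genes described here encode transcription factors that divide the neural plate, the sheet of ectoderm that becomes brain and spinal cord, into regions. They were taken by symbol from a table of 32520 genes, 1 row for each symbol, and all 33 were found. RNA had been sequenced from whole zebrafish embryos of the AB strain, as 4 control pools and 4 pools treated with KT09, the ethanolic extract of dry stems of Mahonia bealei, at 100 µg/ml, each pool holding 75 embryos with their yolk. Treatment started at 2 hours post fertilization (hpf) with 25 embryos per well in E3 medium, and control embryos received E3 with 0.5% DMSO, the solvent of the extract stocks. Collection is given as 8 hpf in the labels, during gastrulation, and at another place of the study as 10 hpf. The study describes delayed epiboly at this dose, so embryonic stage at collection and treatment cannot be told apart in these samples.

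In a gastrula, signals from the margin and the dorsal midline turn on different transcription factors in different stripes of the neural plate. Factors of the forebrain are switched on at the front, iroquois factors in the future midbrain and hindbrain, and, somewhat later, factors such as Olig2, Nkx6 and Dbx1 mark progenitor domains from ventral to dorsal along the neural tube. Many of them are repressors that exclude the factor of the neighbouring domain, which sharpens the borders between regions. Zic and SoxB factors act more broadly, in cells that take or keep a neural fate.

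Each value below is the authors' mean over a group of counts divided by size factors, a normalised count that is not corrected for gene length, so that levels were compared between groups and not between genes. The group means alone carry no spread between pools, and the authors' own comparison of the groups, deposited beside them, was not used. The differences below are therefore given without a test between the groups or a check against replicates. A gene was called higher or lower where log2((treated mean + 1)/(control mean + 1)), here the log2 ratio, passed 1.5-fold, and only with a mean of 10 or more over both groups. The ratio in percent is the treated mean over the control mean with nothing added, and its 95% counting interval is an exact binomial interval on the reads behind both means. It covers counting error only, so intervals that lie apart do not show a difference beyond the spread between pools. The lowest group means recur at 4 values per group, what 1 read adds in each pool, which puts the relative depth of the pools at 0.820 to 1.14 in the control and 0.980 to 1.16 in the treated group. The library names given for replicate 4 of both groups follow the naming of the other group, and which libraries entered each mean was not tested.

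Of the 33 genes, 23 had a mean of 10 or more over both groups, and 15 of these were called lower in treated embryos, 8 neither and 0 higher. Over all 15888 genes with such a mean, 15.1% were called lower and 13.8% higher. The median log2 ratio was -1.30 for the 23 members, against 0.01 for all genes tested. The remaining 10 members were below the minimum and received no call. Of the members called lower, irx1a, olig3 and barhl2 reached the minimum only through the control group. Their treated means were 7.66, 4.80 and 6.55. Members were chosen with earlier results of these data known, so these counts are a description and not a test. Since RNA came from whole embryos, fewer cells of a region and less RNA per cell cannot be told apart.

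**Figure D1:**
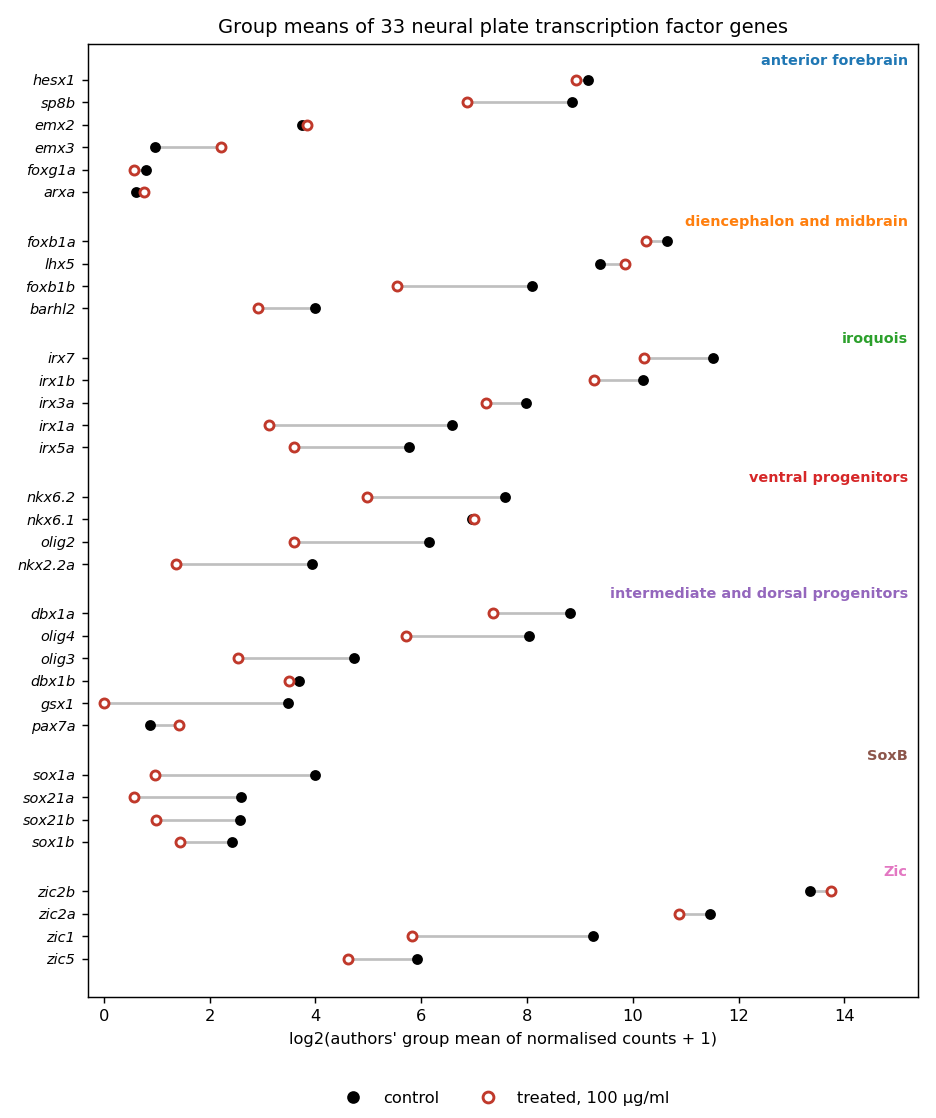
Authors' group means of all 33 genes as log2(mean + 1), by region and by control level, with control as filled and treated as open circles. The treated circle lies far to the left for zic1, irx1a, olig2 and nkx6.2, and beside or to the right of the control circle for zic2b, lhx5, nkx6.1 and emx2.

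The 5 iroquois genes among the members, which encode homeodomain proteins of the three-amino-acid-loop class, were all called lower, against 15.1% of all genes tested. The lowest share of the control level was left of irx1a, which had 94.7 in control against 7.66 in treated embryos, 8.08% of control (counting interval 5.43 to 11.6%), a log2 ratio of -3.47. Its paralog irx1b had 1164 in control and 614 in treated embryos, 52.7% (50.2 to 55.4%). The counting intervals of these copies of irx1 do not overlap. Together with irx1b, irx7 is required in zebrafish for the early midbrain and hindbrain, and it had 2917 in control and 1184 in treated embryos, 40.6% (39.3 to 42.0%). The irx3a and irx5a genes lie next to each other in the RefSeq annotation of the assembly GRCz12tu. Their means were 251 and 149 for irx3a, 59.3% (53.6 to 65.7%). For irx5a they were 53.4 and 11.1, 20.8% (14.9 to 28.9%), a lower share than that of its neighbour. Among the members called lower, irx3a was the closest to the threshold, at a log2 ratio of -0.75. Iroquois genes outside the members did not all share this direction. The irx3b gene had 149.9% of control (101 to 224%) and was not called. Below the minimum, the intervals of irx4b and irx5b lay above the control level and that of irx4a below it.

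Of the factors that mark ventral progenitors, olig2 and nkx6.2 were called lower and nkx6.1 was not. The bHLH gene olig2, needed for motor neuron progenitors, had 69.4 in control and 11.0 in treated embryos, 15.9% (11.3 to 21.7%). The homeobox gene nkx6.2 had 191 and 30.4, also 15.9% (13.01 to 19.1%). Its relative nkx6.1, which acts with it in ventral neural tube patterning, had 123 in control and 127 in treated embryos, 102.9% (90.8 to 117%). The counting interval of nkx6.1 holds the control level and does not overlap that of nkx6.2. The fourth gene, nkx2.2a of the most ventral neural progenitors, was below the minimum, with 14.4 in control and 1.58 in treated embryos, from about 55 and 7 reads (11.0%, 4.49 to 25.8%).

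Intermediate and dorsal progenitor genes with a mean of 10 or more were called lower in 3 of 4 cases, against 15.1% of all genes tested. Of these, olig3 reached the minimum only through the control group. The dbx1a gene, which marks interneuron progenitors at the middle of the neural tube, had 446 in control and 163 in treated embryos, 36.5% (33.4 to 39.9%). Its paralog dbx1b was scarce, at 11.96 and 10.2, and its interval of 55.4 to 133% does not allow a statement about its direction. The bHLH genes olig3 and olig4, both of dorsal progenitors, had shares of control near that of olig2. For olig3 the means were 25.5 and 4.80, 18.9% (11.0 to 30.6%). For olig4 they were 261 and 51.4, 19.7% (16.9 to 22.8%), so that all 3 olig genes with a call lay between 15.9 and 19.7% of control with overlapping intervals. The gsx1 gene, a homeobox gene of intermediate progenitors, had 10.1 in control embryos, about 39 reads, and is listed at 0 in treated embryos. Its counting interval runs from 0 to 9.12% of control. For scale, 3 reads in the treated group make a mean of 0.715. The dorsal factor gene pax7a was near 0 in both groups, at 0.819 and 1.68.

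**Figure D2:**
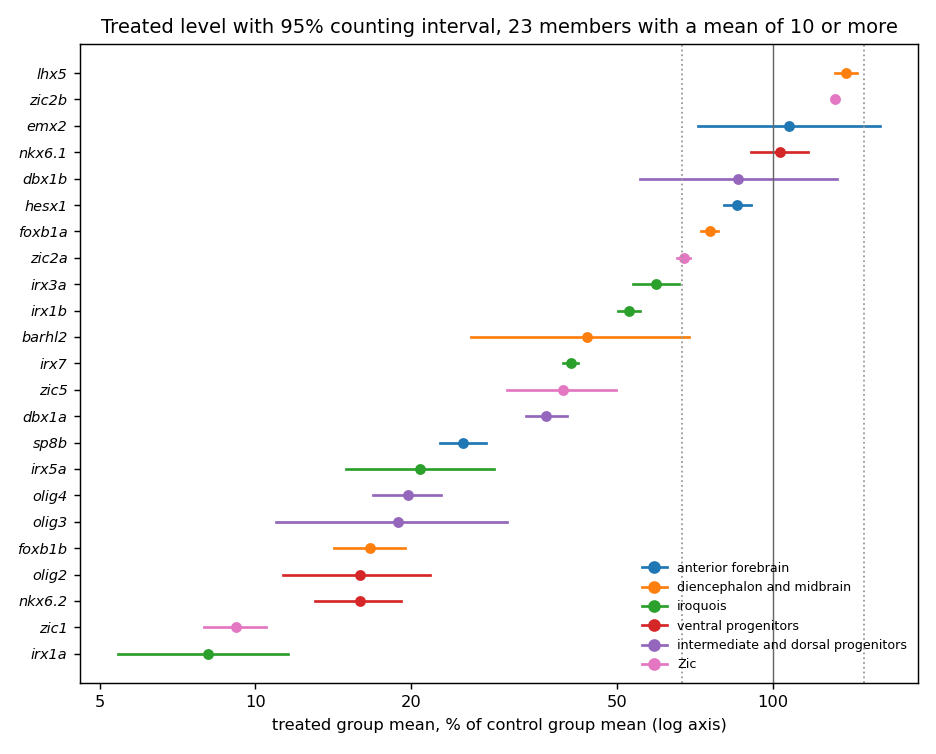
Treated mean in percent of the control mean, on a log axis, for the 23 members past the minimum of 10, with the 95% counting interval as a line and 1.5-fold either way as dotted lines. The values run from 8.08% for irx1a to 138% for lhx5, with zic2a just right of the lower dotted line at 67.2%.

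The 4 Zic genes encode zinc finger proteins of the neural plate and its border. Of these, 2 were called lower, 2 neither and 0 higher, beside 15.1% lower and 13.8% higher over all genes tested. The zic1 gene, of the dorsal neural plate, kept the smallest share of its control mean among the Zic members, with 609.8 in control and 55.8 in treated embryos, 9.15% (7.96 to 10.5%). Its log2 ratio of -3.43 stood at a mid-rank percentile of 0.293 among all genes tested, counted from the lowest. The zic5 gene had 59.7 and 23.5, 39.3% (30.6 to 49.8%). Its neighbour in the annotation, zic2a, had 2799 in control and 1879.6 in treated embryos, 67.2% (65.2 to 69.1%), and at a log2 ratio of -0.57 it lay just short of the call. Both scalings tried beside that of the authors shift the ratios downward, and with them zic2a was called lower. The paralog zic2b, in contrast, had 10403 in control and 13682 in treated embryos, 132% (129.8 to 133%), below 1.5-fold. The counting intervals of the zic2 paralogs lay on opposite sides of 100%.

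In the group of diencephalon and midbrain factors, foxb1b and barhl2 were called lower, while foxb1a and lhx5 were not. The forkhead gene foxb1b had 274 in control and 45.6 in treated embryos, 16.6% (14.2 to 19.4%). Its paralog foxb1a had 1609 and 1214, 75.4% (72.7 to 78.3%). Both paralogs had less RNA in treated embryos, foxb1b by 6.01-fold and foxb1a by 1.33-fold. The homeobox gene barhl2 of the diencephalon was just over the minimum, at 14.97 and 6.55, and its interval of 26.1 to 68.7% reaches past 1.5-fold. The LIM homeobox gene lhx5, which promotes forebrain development in zebrafish by inducing secreted Wnt antagonists, had 665 in control and 920.3 in treated embryos. At 138% (132 to 145%) and a log2 ratio of 0.47, lhx5 was the highest of the 23 members and still short of 1.5-fold.

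Among genes of the anterior forebrain only sp8b, a zinc finger gene, was called. It had 459.8 in control and 116 in treated embryos, 25.2% (22.7 to 27.9%), a log2 ratio of -1.98. The hesx1 gene, a homeobox repressor that is expressed early at the front of the neural plate, had 567 and 484, 85.3% (80.3 to 90.7%). The homeobox gene emx2 was scarce in both groups, at 12.4 and 13.3 (107%, 71.6 to 161%). The remaining 3 genes act in the telencephalon and were close to undetected at this stage: foxg1a had 0.736 and 0.478, arxa 0.514 and 0.684, and emx3 0.960 and 3.65. These means rest on 2 to 4 reads in control embryos, and only emx3 reached 15 reads in the treated group, with a counting interval of 110 to 1427% of control. For foxg1a and arxa a difference was not detectable at this depth.

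The 4 SoxB genes of the list were all below the minimum and all had fewer reads in treated embryos. Group B1 factors such as Sox1 keep cells in a neural progenitor state, and group B2 factors such as Sox21 act as repressors. The sox1a gene had 14.8 in control and 0.954 in treated embryos, from about 57 and 4 reads (6.42%, 1.70 to 17.4%). For sox21a the means were 5.01 and 0.484, from about 19 and 2 reads (9.67%, 1.09 to 40.1%). The sox21b and sox1b genes had 4.92 and 0.989, and 4.38 and 1.71. The upper bound of the interval lay under the control level in each of them, the closest being sox1b at 96.0%. The filter asks for a mean over both groups, so it removed sox1a, nkx2.2a and gsx1, whose control means were above 10. With no minimum, 21 of the 33 members were called lower and 1, emx3, higher, against 16.4% and 16.8% of the 26166 genes then counted.

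**Figure D3:**
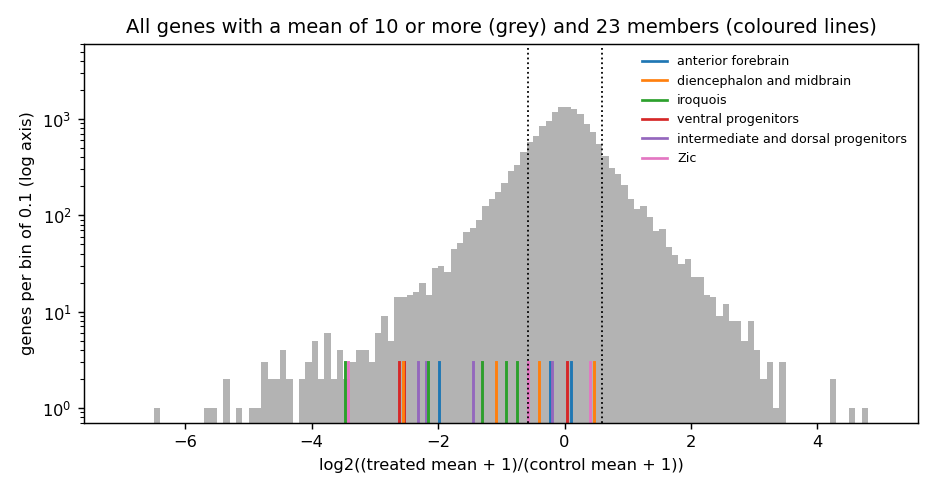
Log2 ratios of all 15888 genes past the minimum (grey bars of 0.1, log count axis) and of the 23 members (coloured lines by region), with 1.5-fold as dotted lines. The members spread from -3.47 to 0.47 and none lies beyond the dotted line on the right.

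Calls were also counted in bands of the mean over both groups. Of 16 members with a mean of 10 to under 500 over both groups, 13 were called lower, with a median log2 ratio of -2.07. Of 7 members with a mean of 500 or more, irx7 and irx1b were called lower, with a median of -0.41 for the 7. Over all genes in these bands, 19.2% and 6.14% were called lower. A lower treated mean itself reduces the mean over both groups: zic1, at 609.8 in control embryos, falls in the lower band for this reason, so the bands are a description and not evidence that calls depend on level. The 5 abundant members without a call were zic2b, zic2a, foxb1a, lhx5 and hesx1.

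Relatives of the members that are not in the list, taken by the family part of the symbol, were looked up after the values of the members were seen. Of 29 such relatives, 11 had a mean of 10 or more, 8 of them called lower and 2 higher. Over all genes tested, 15.1% were lower and 13.8% higher. Of the relatives called lower, zic4, pax3a, pax7b and nkx2.9 reached the minimum only through the control group. Their treated means were 4.82, 4.35, 3.65 and 0.239, so the count of relatives is a description. The tested relative without a call was irx3b, with 11.2 in control and 16.7 in treated embryos, 149.9% (101 to 224%). Next to zic1 in the annotation lies zic4, which had 51.9 in control and 4.82 in treated embryos, 9.29%, beside 9.15% for zic1. The zic6 gene had 47.2% of control. The dorsal factor gene pax3a, a relative of pax7a, had 133 and 4.35, 3.26% of control, and pax3b and pax7b had 47.4% and 21.1%. The Hedgehog target nkx2.9, a relative of nkx2.2a, had 25.2 in control and 0.239 in treated embryos, a single read. The relatives of lhx5 had the opposite direction to most: lhx1a had 179 and 520.0, and lhx1b 23.5 and 72.7, 290.4% and 310% of control. Both are genes of the gastrula margin and organizer as well as of the nervous system. RNA came from whole embryos, and the part of these sites in their values was not tested.

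**Figure D4:**
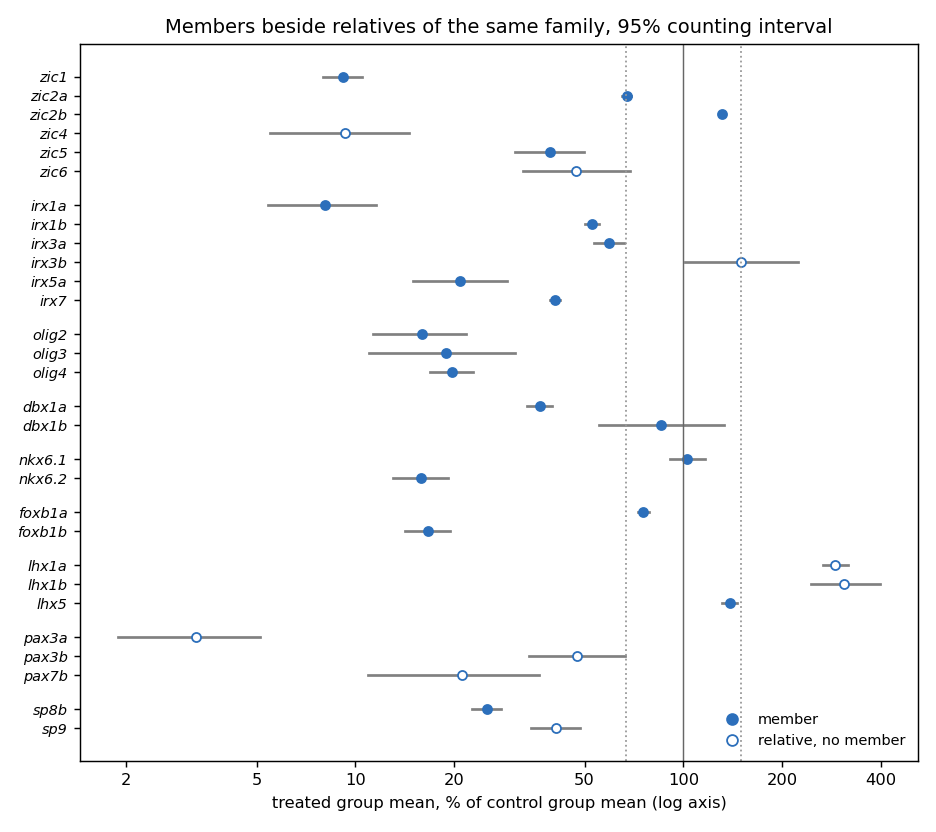
Treated mean in percent of the control mean (log axis) for members (filled) and relatives of the same family (open) past the minimum, with 95% counting intervals and 1.5-fold either way as dotted lines. The paralogs of zic2, irx1, dbx1, nkx6 and foxb1 sit apart. By contrast, zic1 and zic4 sit together, as do olig2, olig3 and olig4 between 15.9 and 19.7%.

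Other genes of neural plate patterning were called lower more often than higher. Of 71 listed, 68 were analysed here and 57 had a mean of 10 or more, with 34 lower and 5 higher and a median log2 ratio of -1.10. The shares over all genes tested were 15.1% lower and 13.8% higher. Of the genes called lower, rx3, neurog1, gbx2, her4.1, ebf2 and nkx2.9 reached the minimum only through the control group. Their treated means were 9.20, 9.01, 7.95, 1.94, 0.959 and 0.239. These lists were chosen with earlier results of these data known, so their counts are a description and no independent support. In the eye field and forebrain list, 9 of 10 genes tested were lower, with the most negative log2 ratios in fezf2 (-4.84), rx3 (-4.72) and pax6b (-3.51), regulators of forebrain and eye. At the midbrain and hindbrain boundary 6 of 9 were lower, with the most negative log2 ratio in pax8 (-3.55). The 2 higher were pax5 and pou5f3, the latter also among the early stage genes. In the hindbrain 6 of 9 were lower, with the most negative log2 ratios in hoxb3a (-3.96), meis2a (-3.70) and hoxb1b (-3.34). The genes mafba and fgf3 were higher there. Of proneural and neuronal genes 6 of 9 were lower and 0 higher, among them neurog1, which starts neurogenesis, at -2.66. The Notch target her4.1 had -3.00 and ebf2 -3.77. In treated embryos these 2 rest on about 8 and 4 reads, with counting intervals of 3.58 to 17.6% and 0.992 to 9.81% of control.

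The early SoxB genes and neural inducers were mostly without a call. Of 8 genes tested, 1 was higher, 1 lower and 6 neither, with a median of 0.05. That is 12.5% either way, near the 15.1% lower and 13.8% higher over all genes tested. The sox2 gene had 1644 in control and 1894 in treated embryos, sox19a 6371 and 7587, and sox3 3496 and 6137, the only one past 1.5-fold upward. The BMP antagonist gene chrd, which permits neural fate, had 4980.4 and 4527, and nog1 377 and 473. The exception was fsta, encoding the antagonist follistatin, with 355 and 27.8, a log2 ratio of -3.63. Genes of Hedgehog signaling from the midline, which sets the ventral progenitor domains, were lower in 6 of 12 and higher in 0. The most negative log2 ratios were those of nkx2.9 (-4.40), counted among the relatives as well, gli2b (-2.36) and hhip (-1.54). The ligand gene shha had 236 and 193, and shhb 160 and 56.1, a log2 ratio of -1.49. The floor plate and notochord gene foxa2 had 1222 and 993.

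**Figure D5:**
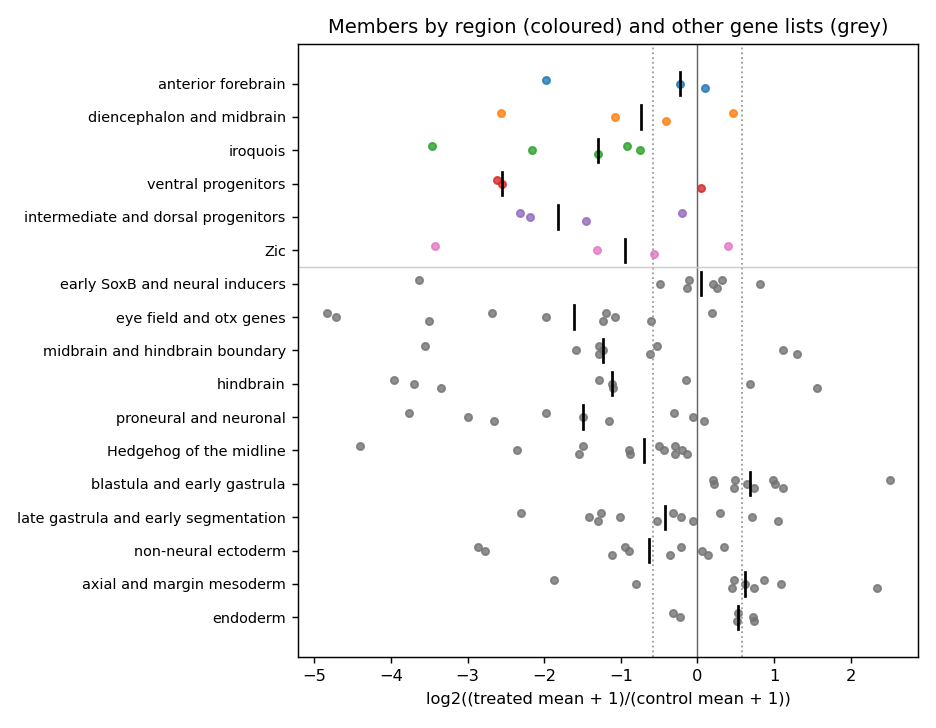
Log2 ratios of single genes past the minimum (points) and their median (black bar) for 6 regional groups of members (coloured) and for other gene lists (grey, germ cell and blood lists not drawn), with 1.5-fold as dotted lines. The medians drawn run from -2.55 for ventral progenitors to 0.69 for blastula and early gastrula genes.

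Genes that mark embryonic stage differed between the groups as well. The shares to set beside their counts are 15.1% lower and 13.8% higher over all genes tested. Of 10 blastula and early gastrula genes tested, 6 were higher and 0 lower, and the summed mean of the 12 listed was 23988 in control and 41881 in treated embryos. Of these sums pou5f3 alone had 10649 in control and 23138 in treated embryos. Among the genes called higher, the pluripotency factor gene nanog had 385 and 766 and the homeobox gene sebox 20.6 and 122. Of 12 late gastrula and early segmentation genes, 5 were lower (41.7%) and 2 higher (16.7%), the latter near the share over all genes. Their summed mean was 13236 in control and 11464 in treated embryos. The part of stage in the members' values was not tested.

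Except for most blood and vessel genes, the markers of other cell layers had a mean of 10 or more over both groups. Their counts stand beside 15.1% lower and 13.8% higher over all genes tested. In non-neural ectoderm 5 of 10 genes were lower and 0 higher, with a summed mean of 143502 and 141676, most of it from the keratin genes krt4 and krt8. The epidermal regulator tp63 had 999 and 145, and dlx3b of the neural plate border 2813 and 387. Of 9 genes of axial and margin mesoderm 5 were higher and 2 lower, with a summed mean of 21748 and 29045, and of 6 endoderm genes 2 were higher and 0 lower, with 12319 and 16695. Germ cell genes were higher in 3 of 5, with 1267 and 2781. Of 7 blood and vessel genes only lmo2 and kdrl had a mean of 10 or more, and 1 of them, kdrl, was lower. No marker of these lists was at 0 in both groups, but fli1a rests on about 1 read in control and 5 in treated embryos. The part of cell composition in the members' values was not tested.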

How the data were processed

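RNA-seq of whole embryos (stranded mRNA libraries, 100 bp, single-end) was available as 1 table. Counts came from nf-core rnaseq 3.0, run by the authors with the GRCz11 assembly and Ensembl annotation release 103. Their comparison used DESeq2, whose version is not given in the sources used here. The values used are signal values: the authors' deposited means over control, treated or all pools of counts divided by size factors. The authors' deposited log2 fold changes with standard errors, test statistics, p-values and adjusted p-values were not used. No columns per pool were used, so no spread, no test, no leaving out of a pool and no list test was run.

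Samples were grouped by title. Log2 ratios used a pseudocount of 1, calls 1.5-fold and a mean of 10 or more. What 1 read is worth was read from the 4 most frequent group means under 0.32 and averaged to 0.259 in control and 0.238 in treated pools. Reads behind a mean are the mean divided by this value, rounded, and they gave conditional exact binomial (Clopper-Pearson) intervals of 95%, which cover counting error only. Summed over genes, the control means gave 1.62e+07 and the treated means 1.69e+07. Over 9714 genes at a mean of at least 100, the median log2 ratio was 0.02. Where a symbol had several rows, that with the largest mean was taken. Of 163 listed symbols 160 were found, all under the symbol in the table, and the other 3 were not analysed here. Not every relative of the members is reported here. Neighbouring genes came from the RefSeq annotation of GRCz12tu, a different assembly, so no coordinates are given. Members and lists were chosen with earlier results of these data known. All 33 members are described. The plan for the other lists was to name up to 3 genes with the largest absolute log2 ratio. It was not kept to in every list: some such genes are not named, and further genes were named after their values were seen. Alternatives were other folds, pseudocounts, minimum means and scalings, and calls on the interval. Values were computed with scipy 1.17.1, numpy 2.4.6 and pandas 2.3.3 under Python 3.11.15, and figures drawn with matplotlib 3.10.9.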

Additional observations from a re-analysis of the deposited data

How the results depend on the processing

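No paired analysis was possible because the columns used are group means with no values per pool, and for the same reason no pool could be left out. Of the 15 members called lower, 15 stayed so with a pseudocount of 5 and 14 where the whole counting interval had to pass 1.5-fold (without barhl2). At a fold of 2, 13 stayed so (without irx1b and irx3a). All 15 also stayed so with a pseudocount of 0.5, a fold of 1.3, no minimum mean and either scaling. None of these last settings could lose a lower call, since both scalings shifted the ratios downward and the others only loosened the call. A minimum mean of 50 left 10 of 16 members called lower, against 11.9% of the 11611 genes then counted. Both scalings added zic2a. Members called higher numbered 2 at a fold of 1.3 and 1 with no minimum mean. The median log2 ratio of the members was -1.18 with a pseudocount of 5, -1.11 with a minimum mean of 50 and -1.37 with group means rescaled to equal sums. Over the 15888 genes tested, 3573 (22.5%) were called higher and 3721 (23.4%) lower at a fold of 1.3. At a fold of 2 these were 919 (5.78%) and 1034 (6.51%), and by the counting interval 1425 (8.97%) and 1491 (9.38%). With a minimum mean of 50 they were 1248 and 1376 of 11611, and with no minimum 4395 and 4286 of 26166. Of single members, nkx6.1 changed sign with equal sums, from 0.04 to -0.02. No member's symbol had several rows, so summing rows gave no other value, and the fold and interval alternatives have no bearing on the median. Members with a mean below 10 are limited by depth. The spread between pools was not assessed for any value.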

Other observations

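The protein-coding genes directly next to the members in the GRCz12tu annotation, which the regional lists do not cover, were followed as well. Of 34 such neighbours that are no members and had a mean of 10 or more, 6 were called lower (17.6%) and 4 higher, with a median log2 ratio of -0.09. Over all genes tested 15.1% were lower and 13.8% higher, so the neighbours were near the background, and those named next are given as values only. The neighbours called lower included zic4 beside zic1 and nav2a, a gene named for neuron navigation, beside dbx1a, with 1259 in control and 604 in treated embryos. The corresponding gene beside dbx1b, nav2b, had 1450 and 2135 and was not called. Beside lhx5, fam169ab had 114 in control and 522 in treated embryos, a log2 ratio of 2.18, and beside zic2b, pcca, encoding a subunit of propionyl-CoA carboxylase, had 1219 and 2230.1. Neighbours of gsx1 and sox1a were not called, with log2 ratios from -0.37 to -0.01.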
